A study of Mus musculus with 22 samples.

Results

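The genes described here are 10 members of the canonical Wnt pathway, chosen by symbol for their place in it, out of 34489 genes counted in 22 RNA-seq libraries of mouse pluripotent cells and cultures derived from them. They are the 4 TCF/LEF transcription factors (Tcf7, Lef1, Tcf7l1 and Tcf7l2), their partner β-catenin (Ctnnb1), and 5 genes known as direct targets of β-catenin (Axin2, Sp5, Cdx1, Nkd1 and Notum). All 10 symbols matched exactly 1 counted gene each, and all 10 passed the filter on low counts, which left 18739 genes to test.

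Without a Wnt ligand, a complex of Axin, Apc and the kinase GSK3 marks β-catenin for destruction. A Wnt ligand, or an inhibitor of GSK3, lets β-catenin build up and join TCF/LEF factors on DNA, where it turns on targets that include feedback inhibitors of the pathway itself, such as Axin2, Nkd1 and Notum. In mouse embryonic stem cells Tcf7l1 (also called Tcf3) acts mainly as a repressor, and relief of that repression on genes such as Esrrb is a textbook route by which a GSK3 inhibitor holds cells in the naive state.

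The study asked whether AMPK activators (AICAR, A769662 and metformin) turn primed mEpiSCs (mouse epiblast stem cells, which resemble the epiblast after implantation) into naive mESCs (mouse embryonic stem cells, which resemble the epiblast before it). Inhibitors of MEK and of GSK3 with the cytokine LIF make up 2iL, the medium of naive cells, so that the medium itself acts on the pathway described here. A single Rex1-GFP mESC library (strain 129/Ola) stands for naive cells and entered no test. Primed cells are 1 library of the Oct4GIP line (129/Ola, with a transgene of GFP and puromycin resistance under Oct4 regulatory sequence) and 1 of the 129/MSM line, both grown with FGF2 and Activin A, the former on fibronectin and the latter on feeders of mouse embryonic fibroblasts (MEF). Oct4GIP mEpiSCs were moved onto MEF feeders before reversion and kept in Basal medium alone or with 2iL, AICAR or AICAR+LIF. They gave 8 libraries of whole cultures, 1 per medium at day 8 and 1 at day 16 (d8 and d16). Reverted cells were re-cultured in 2iL on gelatin from day 16, in serum-free or Basal medium by the paper's account. They gave 4 Oct4GIP libraries after 2 or 3 passages, from AICAR and from AICAR+LIF (d16+2-3p). After 10 passages (d16+10p) they gave 7 libraries: from Oct4GIP 1 each after metformin+LIF, A769662, A769662+LIF, AICAR and AICAR+LIF, and from 129/MSM 1 each after AICAR and AICAR+LIF. The GSK3 inhibitor was thus in the medium of 14 libraries (naive, reverted and 2iL cultures) and absent from that of 8.

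No exact condition had a second library. Libraries of 1 state or medium therefore stand in as samples of it, and their spread includes activator, passage and line. Day in the whole cultures was a term of the fit, which leaves there the departures from a day change common to all media. The p-values measure the spread that is left, estimated over all 22 libraries together. Library totals ran from 438771 (AICAR+LIF d8) to 5290163 counts, and a level of 3 counts corresponded to 0.568 CPM in the deepest library and 5.95 CPM in the shallowest, where CPM are library-scaled counts (edgeR's CPM with TMM factors). These limits cover counting error only. The whole cultures stood apart from their label of epiblast: the summed level of Pou5f1, Sox2 and Nanog was 133 to 317 CPM in them against 576 and 1123 CPM in primed and 1516 to 2017 CPM in reverted libraries. The summed level of 10 markers of fibroblasts and other mesenchyme, such as collagen Col1a1, was 2816 to 49690 CPM in the whole cultures, where 9 or 10 of the 10 had more than 3 counts, against 7.76 to 94.2 CPM in reverted libraries. There 2 to 8 of the 10 had more than 3 counts (8 in AICAR d16+2p), and Dcn and Prrx1 never did. The primed 129/MSM library also stood apart from primed Oct4GIP, with 546 against 34.7 CPM of those markers and 333 against 8.49 CPM of 6 mesoderm and endoderm markers. In bulk samples such as these, fewer cells of a type and less RNA per cell cannot be told apart.

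Sp5 and Axin2 are the usual transcript reporters of β-catenin activity, and the RefSeq windows from 250 bases before to 50 bases after their start sites (GRCm38.p6) show how differently the letters of a TCF/LEF site are placed in them. Capitals mark each match to CTTTGA or CTTTGT on either strand; the 2 strings share their first 5 letters and did not overlap one another in the Sp5 window.
Sp5, chr2:70474673-70474972, plus strand: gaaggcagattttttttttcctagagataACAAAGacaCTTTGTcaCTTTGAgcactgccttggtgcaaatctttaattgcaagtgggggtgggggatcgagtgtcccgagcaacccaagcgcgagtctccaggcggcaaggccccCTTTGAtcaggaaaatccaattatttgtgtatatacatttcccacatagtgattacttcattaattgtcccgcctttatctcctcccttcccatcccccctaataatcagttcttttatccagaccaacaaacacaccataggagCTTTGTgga
Axin2, chr11:108920099-108920398, plus strand: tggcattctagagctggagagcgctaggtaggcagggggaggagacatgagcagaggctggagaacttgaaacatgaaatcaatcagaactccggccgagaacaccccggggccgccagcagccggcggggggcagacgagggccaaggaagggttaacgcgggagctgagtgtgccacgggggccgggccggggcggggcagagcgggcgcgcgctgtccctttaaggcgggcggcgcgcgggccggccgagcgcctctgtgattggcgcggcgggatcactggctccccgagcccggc
The Sp5 window held 5 matches, 4 of them upstream of the start site, and the Axin2 window held 0. Of 32851 promoter windows of this length, 31.2% held at least 1 match and 0.0365% held at least 5. Among 14 windows used for 8 of the 10 genes, with Cdx1 and Notum left out, 4 held a match: that of Sp5, 1 of 4 for Lef1 (3 matches), that of Tcf7l1 (1) and 1 of 2 for Tcf7l2 (1). Such a match is a run of letters and not evidence of binding, and 0 matches says only that these letters are absent from the window.

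Axin2 (ENSMUSG00000000142, chr11:108920349-108950783) encodes a scaffold of the destruction complex and is induced by the pathway it restrains. It was at 125 CPM in naive mESCs, at 12.9 CPM in primed Oct4GIP and 8.56 CPM in primed 129/MSM mEpiSCs, and at 83.8, 113 and 161 CPM (lowest, median and highest of 7) at d16+10p. Every d16+10p library was above both primed libraries. The fitted change from primed to d16+10p was a log2 fold change of 3.43 (SE 0.375, 10.8-fold, adjusted p = 1.24e-06, edgeR's quasi-likelihood test with Benjamini-Hochberg adjustment over 18739 genes, as for every adjusted p here). The low level was not shared by all media without the inhibitor. Axin2 was at 113 CPM in Basal d8, 204 CPM in Basal d16, 124 and 118 CPM in AICAR d8 and d16, and 101 and 111 CPM in AICAR+LIF d8 and d16. With the inhibitor it was at 84.9 CPM in 2iL d8 and 145 CPM in 2iL d16. The 2iL d16 culture thus lay within the range of the cultures without the inhibitor, and 2iL d8 lay below all of them. Basal d16 held the highest level of all 22 libraries. The whole cultures were also the libraries with 2816 to 49690 CPM of mesenchymal markers, whose part in their Axin2 level was not tested.

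**Figure D1:**
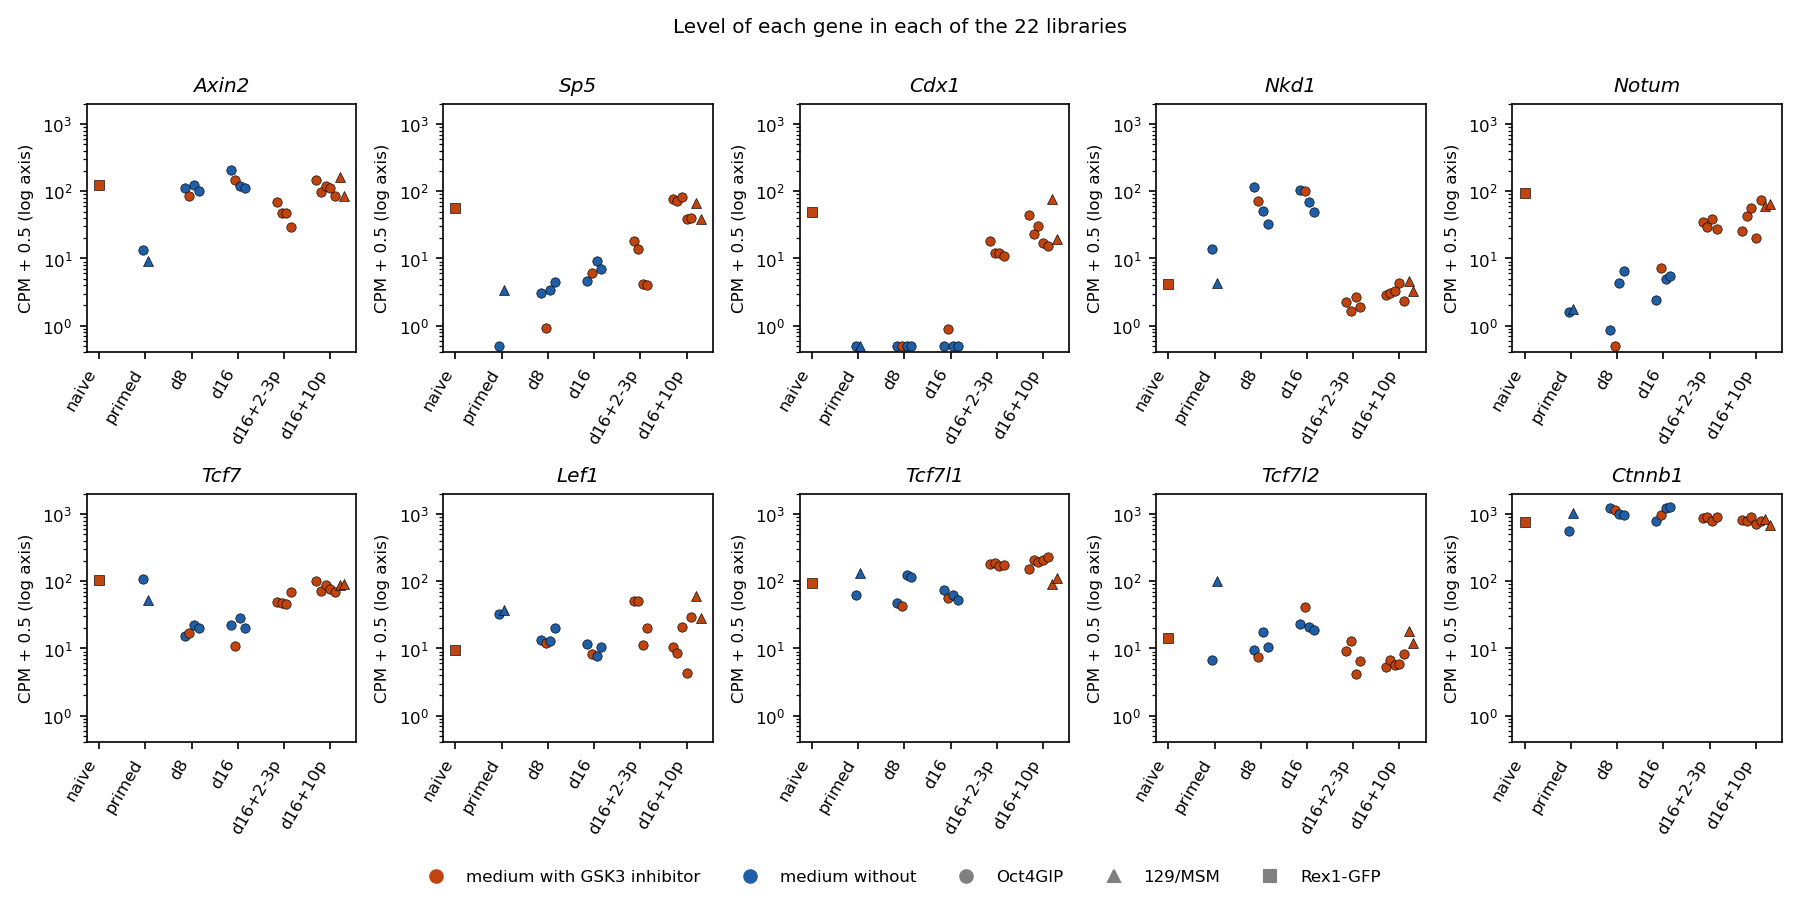
Level of each of the 10 genes in each library, as CPM + 0.5 on a log axis, by state, with colour for the GSK3 inhibitor in the medium and symbol shape for the line. Axin2 is lowest in the 2 primed libraries, Cdx1 and Notum are high only in naive and reverted libraries, and Nkd1 is high in the 8 whole cultures.

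Sp5 (ENSMUSG00000075304, chr2:70474923-70477729), a zinc-finger transcription factor induced by Wnt, was high in naive and d16+10p cells and low at d16+3p. It was at 55.7 CPM in naive mESCs, at 0 counts in primed Oct4GIP and 2.85 CPM in primed 129/MSM mEpiSCs, and at 37.8, 65.6 and 83.1 CPM (lowest, median and highest) at d16+10p. The d16+2p libraries were at 17.5 CPM (AICAR) and 13.4 CPM (AICAR+LIF), and the d16+3p libraries at 3.64 and 3.53 CPM. All 4 lay below every d16+10p library, and the d16+3p pair lay within the range of the whole cultures, 0.416 to 8.77 CPM. The log2 fold change was 5.24 (SE 0.813, adjusted p = 5.55e-05) from primed to d16+10p and 2.61 (SE 0.463, 6.09-fold, adjusted p = 0.00145) from d16+2-3p to d16+10p. The former was 4.34 without primed Oct4GIP, and without primed 129/MSM it was 10.32, a value that is no bound because the primed library left was at 0 counts. It was called in both cases.

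Cdx1 (ENSMUSG00000024619, chr18:61018862-61036199), a caudal-type homeobox gene, was counted almost only in cells of the naive type. It was at 48.6 CPM in naive mESCs, 10.2 to 17.5 CPM in the 4 d16+2-3p libraries and 14.6, 22.45 and 77.0 CPM (lowest, median and highest) at d16+10p. It had 0 counts in both primed libraries and in all whole cultures but 2iL d16, which had 1 count. Against 3 counts in the primed library with the higher limit, the mean of the d16+10p libraries was at least 28.9-fold higher (adjusted p = 7.16e-05). The same bound for d16+2-3p against AICAR and AICAR+LIF at d16 was at least 11.2-fold higher (adjusted p = 0.000225), a call that was lost without the AICAR d16 or the AICAR+LIF d16 library, when 1 culture at 0 counts was left. The highest level was in AICAR d16+10p of 129/MSM, while AICAR+LIF d16+10p of that line was at 19.3 CPM. From d16+2-3p to d16+10p the log2 fold change was 1.31 (SE 0.440, adjusted p = 0.0696), which missed the threshold.

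Notum (ENSMUSG00000042988, chr11:120653788-120661175), a secreted enzyme that removes the lipid from Wnt ligands, had the same split between states. Levels were 92.8 CPM in naive mESCs, 26.8 to 38.3 CPM at d16+2-3p and 19.7, 56.9 and 74.4 CPM (lowest, median and highest) at d16+10p, against 1.11 and 1.27 CPM in primed mEpiSCs. In the whole cultures it was at 0 counts in 2iL d8, 0.363 CPM in Basal d8 and at most 6.84 CPM, in 2iL d16. No naive or reverted library overlapped any other library. The log2 fold change was 5.31 (SE 0.733, adjusted p = 1.67e-05) from primed to d16+10p and 2.42 (SE 0.590, adjusted p = 0.00155) from AICAR with or without LIF at d16 to d16+2-3p. The latter rests on the d16 cultures: without the AICAR d16 library it was 1.54 and without the AICAR+LIF d16 library 1.34, and it missed the threshold in both cases.

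Nkd1 (ENSMUSG00000031661, chr8:88521354-88594884), an inhibitor that binds Dishevelled, was high in the whole cultures and low elsewhere. It was at 114 and 103 CPM in Basal d8 and d16, 71.1 and 101 CPM in 2iL, 51.3 and 69.8 CPM in AICAR and 31.7 and 49.5 CPM in AICAR+LIF. In naive mESCs it was at 3.74 CPM, in the 11 reverted libraries at 1.15 to 4.10 CPM, in primed 129/MSM at 3.80 CPM and in primed Oct4GIP at 13.3 CPM. All 8 whole cultures lay above all other libraries, by a ratio of means of 30.5 over the reverted ones. From AICAR with or without LIF at d16 to d16+2-3p it fell by 5.05 on the log2 scale (SE 0.355, adjusted p = 1.91e-09). The summed level of the mesenchymal markers went from 16860 and 18900 CPM to at most 94.2 CPM in the same step, and their part in the fall was not tested. Nkd1 was also lower in AICAR with or without LIF than in Basal medium (log2 fold change -1.14, SE 0.297, adjusted p = 0.019). This call was lost without the Basal d8 (-0.81), Basal d16 (-1.48), AICAR d8 (-1.10) or AICAR+LIF d8 (-1.02) library. It fell by 1.54 from primed to d16+10p (SE 0.357, adjusted p = 0.00215), and by 0.41, with no call, once the primed Oct4GIP library was left out.

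The TCF/LEF factors partner β-catenin with different bias: Tcf7 (Tcf1) and Lef1 mostly as activators, Tcf7l1 mostly as a repressor, and Tcf7l2 (Tcf4) in either role. To set their levels side by side, CPM were divided by the length of the longest coding transcript, 2471 bases for Tcf7, 3482 for Lef1, 3042 for Tcf7l1 and 3715 for Tcf7l2 (GENCODE M21). Summed over the 4 genes, the level per length was 79.5 CPM per kb in naive mESCs, 75.7 and 103 in primed mEpiSCs, 79.1 to 114 in reverted libraries and 26.1 to 57.6 in whole cultures. Tcf7l1 made up 39.5% of the sum in naive mESCs, where Tcf7 made up 52.5%. In the reverted libraries Tcf7l1 made up 33.7% to 71.1% (median 62.2%) and Tcf7 19.7% to 43.3% (median 29.9%). Primed Oct4GIP was led by Tcf7 (58.6%, against 27.1% for Tcf7l1), and primed 129/MSM by Tcf7l1 (42.6%), with Tcf7l2 at 26.6%.

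**Figure D2:**
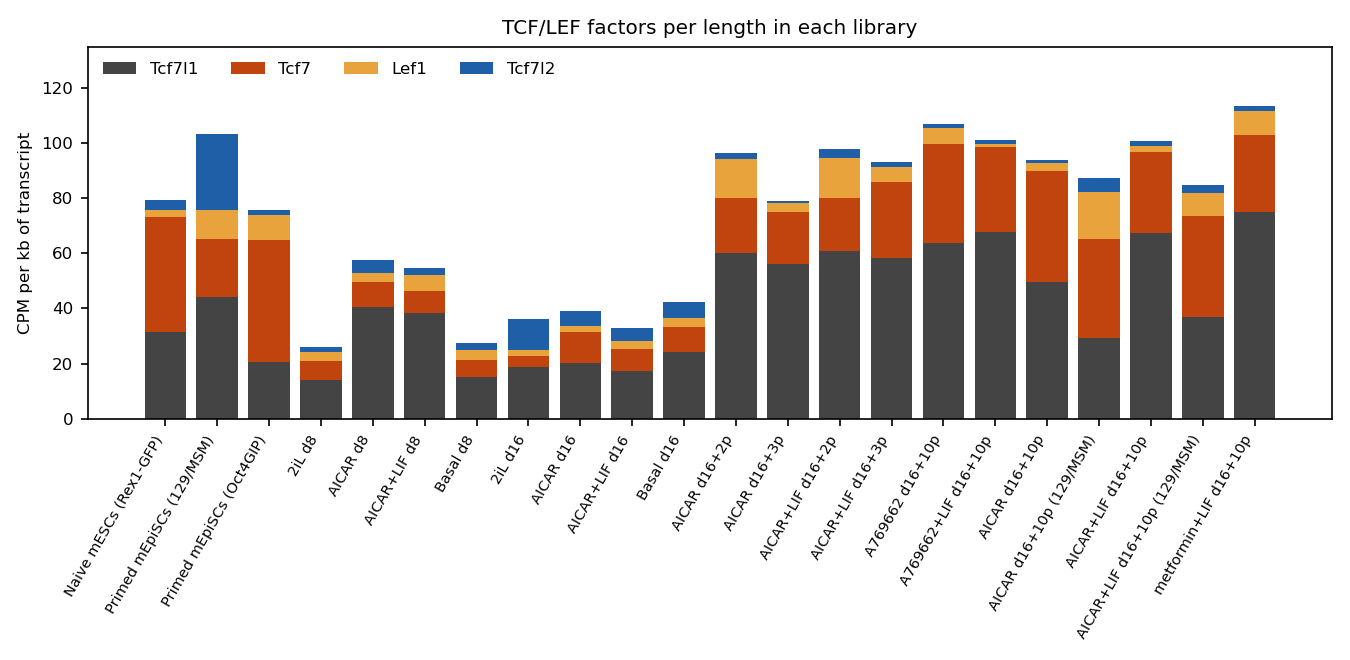
Stacked bars of Tcf7l1, Tcf7, Lef1 and Tcf7l2 in each library, in CPM per kb of the longest coding transcript. Reverted Oct4GIP libraries are mostly Tcf7l1 and Tcf7, the whole cultures have the lowest bars, and Tcf7l2 forms a large part only in primed 129/MSM and 2iL d16.

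Tcf7 (ENSMUSG00000000782, chr11:52252371-52283014) was high in all pluripotent libraries and low in whole cultures. Naive mESCs held 103 CPM of it, primed Oct4GIP 110 CPM and primed 129/MSM 52.6 CPM, with 46.3 to 68.7 CPM at d16+2-3p and 69.3, 88.5 and 99.8 CPM (lowest, median and highest) at d16+10p, against 10.5 to 28.2 CPM in the 8 whole cultures. No whole culture overlapped any other library. Primed and d16+10p libraries did overlap, and the change between them was 0.05 on the log2 scale (95% interval -0.48 to 0.57). Tcf7 rose by 1.20 (SE 0.263, adjusted p = 0.000653) from AICAR with or without LIF at d16 to d16+2-3p and by 0.66 (SE 0.196, adjusted p = 0.0357) from there to d16+10p, the latter a call that was lost when any of 7 of those 11 libraries was left out, with values of 0.60 to 0.64.

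Lef1 (ENSMUSG00000027985, chr3:131110471-131224356) varied widely between libraries of 1 state. At d16+2p it was at 49.6 CPM (AICAR) and 50.4 CPM (AICAR+LIF), and at d16+3p at 10.9 and 19.4 CPM. At d16+10p it ran from 3.78 CPM in A769662+LIF through a median of 20.7 CPM to 60.2 CPM in AICAR of 129/MSM. The other 129/MSM reverted library was at 28.3 CPM, within the Oct4GIP range, whose highest library was metformin+LIF at 29.3 CPM. Naive mESCs were at 9.03 CPM and primed Oct4GIP and 129/MSM at 31.7 and 36.8 CPM. Neither the change from primed to d16+10p (-0.58 on the log2 scale, 95% interval -1.97 to 0.81) nor that from d16+2-3p to d16+10p (-0.51, -1.62 to 0.61) passed the test.

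Tcf7l1 (ENSMUSG00000055799, chr6:72626378-72789254) was higher in reverted Oct4GIP cells than in any other library. It was at 171 to 185 CPM in the 4 d16+2-3p libraries and 151 to 229 CPM in the 5 Oct4GIP libraries at d16+10p. In 129/MSM reverted cells it was at 89.3 and 113 CPM, in naive mESCs at 95.6 CPM, in primed Oct4GIP and 129/MSM at 62.4 and 134 CPM, and in whole cultures at 42.9 to 124 CPM. At d16+10p the ratio of the Oct4GIP mean to the 129/MSM mean was 1.95, with no overlap between 5 and 2 libraries. The lines thus went opposite ways and their order reversed: Oct4GIP d16+10p libraries lay above their primed library and 129/MSM d16+10p libraries below theirs. Each primed level is that of 1 library. Fitted over both lines, the change from primed to d16+10p was 0.79 on the log2 scale (SE 0.372, adjusted p = 0.102), and without the 3 129/MSM libraries it was 1.63 (adjusted p = 0.0047). From AICAR with or without LIF at d16 to d16+2-3p Tcf7l1 rose by 1.23 (SE 0.386, adjusted p = 0.00943), a call that was lost without the AICAR d16 (0.84) or AICAR+LIF d16 (0.78) library. The d16 side of this contrast is a fitted level that assumes a day change common to all media. The observed levels there were 61.05 CPM (AICAR d16) and 52.1 CPM (AICAR+LIF d16).

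Tcf7l2 (ENSMUSG00000024985, chr19:55741820-55933654) was set apart by a single library. Primed 129/MSM was at 102 CPM, 16.3 times the 6.27 CPM of primed Oct4GIP, and the next highest library was 2iL d16 at 41.0 CPM. At d16+10p it was at 4.72, 6.18 and 17.6 CPM (lowest, median and highest), the upper pair being the 129/MSM libraries at 17.6 and 11.4 CPM. The fall of 2.71 on the log2 scale from primed to d16+10p (SE 0.590, adjusted p = 0.00131) turned into a value of 0.40 with no call when primed 129/MSM was left out. That library also carried 333 CPM of mesoderm and endoderm markers, among them Foxa2 at 70.7 CPM, and their part in its Tcf7l2 level was not tested. In whole cultures Tcf7l2 was at 7.07 to 17.1 CPM at d8 and 18.1 to 41.0 CPM at d16, with no overlap between the days. The change with day was 1.29 on the log2 scale (SE 0.657, adjusted p = 0.154).

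Ctnnb1 (ENSMUSG00000006932, chr9:120929216-120960507) itself differed least. It ran from 554 CPM in primed Oct4GIP to 1266 CPM in AICAR+LIF d16, with 773 CPM in naive mESCs and 683, 792 and 902 CPM (lowest, median and highest) at d16+10p. It was called in none of the 7 comparisons. From AICAR with or without LIF at d16 to d16+2-3p it was -0.35 on the log2 scale (SE 0.194, adjusted p = 0.114), and that comparison did pass in 6 alternatives (DESeq2's test, DESeq2's size factors, 10 counts in every library, no 129/MSM libraries, no AICAR or AICAR+LIF d8 libraries, and thinned counts). Its change from primed to d16+10p was -0.02 on the log2 scale (95% interval -0.45 to 0.42). Since β-catenin is regulated mainly by destruction of the protein, these transcript levels do not measure its amount.

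Reverted cells after 10 passages were compared with primed mEpiSCs to ask how the pathway's transcripts differ once the cells live in 2iL. Axin2, Sp5, Cdx1 and Notum rose, Tcf7l2 and Nkd1 fell, and Lef1, Tcf7, Tcf7l1 and Ctnnb1 did not pass the test. These 6 calls among 10 genes stood beside 39.9% of all genes tested. By direction, 4 of the 10 were higher beside 18.3% of all genes and 2 lower beside 21.7%. The median log2 fold change of the 10 was 0.42, against -0.01 over all genes. Without the primed 129/MSM library Tcf7l2 was no longer called, and without primed Oct4GIP neither was Nkd1.

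The components of 2iL were also tested on whole cultures, where Basal medium with 2iL was compared with Basal medium alone at d8 and d16. These cultures were on feeders, and the base medium of the reverted cells may differ from theirs. None of the 10 genes passed edgeR's test, 0 did so at an unadjusted p under 0.05, and 0 did with DESeq2 or limma, beside 0.315% of all genes called (0.224% higher and 0.0907% lower). For Axin2 the log2 fold change was -0.46, with a 95% interval of -1.21 to 0.29 that excludes the change of 3.43 seen between primed and d16+10p cells. For Sp5 it was -0.26 (-2.31 to 1.80) and for Notum 1.40 (-0.61 to 3.41), intervals too wide to exclude a several-fold rise. Cdx1 had at most 1 count in each of the 4 libraries, below the limit of 3 counts, and no fold is given for it. The median over the other 9 genes was -0.30, against -0.03 over all genes.

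**Figure D3:**
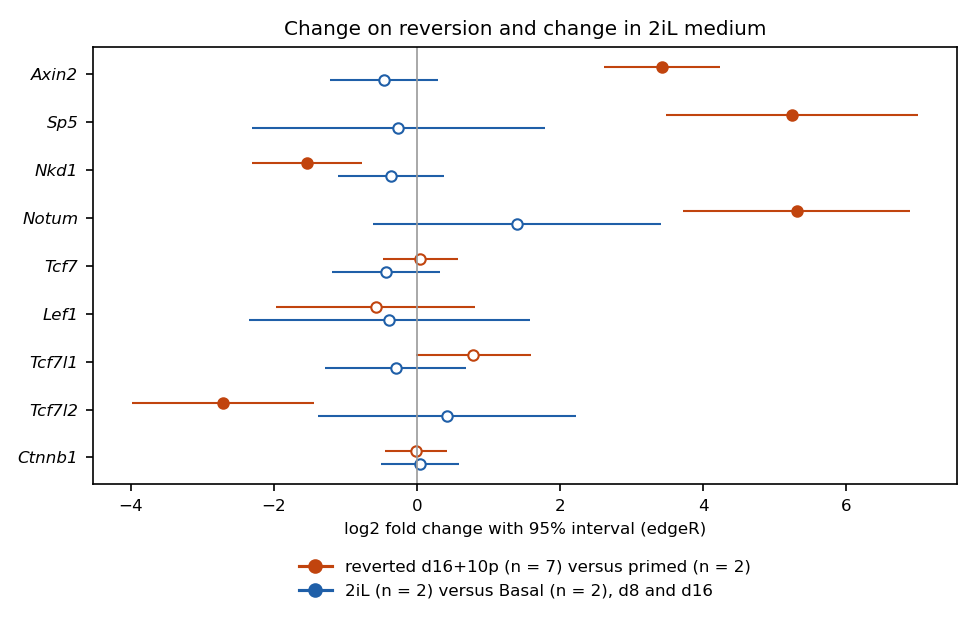
Log2 fold change with its 95% interval for 9 genes, from primed to d16+10p and from Basal to 2iL in whole cultures, with filled points for an adjusted p under 0.05. Cdx1 is left out because 2iL and Basal libraries were at or under 3 counts, and the 2 intervals of Axin2, Sp5, Notum and Tcf7l2 do not meet.

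Whether the reversion change exceeded the medium change was tested directly, as the difference between these 2 effects. It was positive for Axin2 (3.89 on the log2 scale, SE 0.503, adjusted p = 6.29e-05), Sp5 (5.50, SE 1.25, adjusted p = 0.00537) and Notum (3.91, SE 1.27, adjusted p = 0.0418). These 3 of 10 genes stood beside 16.3% of all genes called in either direction (6.95% as positive and 9.36% as negative). For Tcf7l2 it was -3.13 (SE 1.06, adjusted p = 0.0508), a value that passed the threshold in 7 alternatives and was -0.08 without primed 129/MSM. For Sp5 it ran from 4.57 to 10.49 with 1 library left out, highest without primed 129/MSM, and was called throughout. The Notum call was lost when either primed, either Basal, the 2iL d8, the A769662 d16+10p or the AICAR d16+10p library of 129/MSM was left out, with values of 3.07 to 4.07, and it was 9.80 without 2iL d16, when the 2iL library left was at 0 counts. It was also lost with limma (4.58), with thinned counts (6.44) and without the 129/MSM libraries (3.80).

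Sorting the libraries by the presence of the inhibitor alone separated few of all genes and no member, so it says nothing particular to the members. Of the 10 genes, 0 had levels that did not overlap between the 14 libraries with it and the 8 without, beside 0.171% of all genes higher and 0.0694% lower. Within the whole cultures, 0 did so between 2iL and the other 6, beside 1.53% higher and 1.92% lower. Sorted by state instead, a split chosen after the levels were seen, 2 of the 10 (Cdx1 and Notum) were higher in all 12 naive and reverted libraries than in all 10 others, beside 9.71% of all genes, and 0 were lower, beside 7.64%.

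AICAR with or without LIF was compared with Basal medium at d8 and d16 to ask what differed with the activator. The AICAR+LIF libraries also had LIF, which Basal medium lacked, and the contrast does not separate the 2. Nkd1 was the only one of the 10 called, as lower, beside 11.4% of all genes called (4.42% higher and 6.98% lower). Axin2 differed by -0.45 on the log2 scale (95% interval -1.10 to 0.20) and Tcf7l1 by 0.42 (-0.46 to 1.31). For Tcf7l1 this mean over days covers opposite patterns. At d8 it was at 124 CPM (AICAR) and 117 CPM (AICAR+LIF) against 46.5 CPM in Basal. At d16 it was at 61.05 and 52.1 CPM against 74.0 CPM in Basal. Whether the effect of AICAR differed by day was not tested. Notum differed by 1.76 (-0.06 to 3.58, adjusted p = 0.19). Its levels of 3.80 to 5.95 CPM in the 4 AICAR libraries did not overlap the 0.363 and 1.89 CPM of Basal. In the shallow d8 libraries these were 4 counts (AICAR) and 3 counts (AICAR+LIF). This comparison and that of 2iL share their Basal libraries.

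Between d8 and d16, with the medium held constant in the fit, 0 of 10 genes passed edgeR's test, 0 did at an unadjusted p under 0.05 and 0 did with DESeq2 or limma, beside 28.6% of all genes (15.8% higher and 12.8% lower). Cdx1, with at most 1 count in each of these cultures, was set aside. Of the other 9, the largest differences were those of Notum (1.53 on the log2 scale), Sp5 (1.47) and Tcf7l2 (1.29). Notum was called when the AICAR d8 and AICAR+LIF d8 libraries were left out, and Tcf7l2 when the 129/MSM libraries were.

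Between whole culture at d16 and the first passages in 2iL most of the members differed, as did most genes tested. The d16 side of that comparison is a fitted level, which draws on the d8 AICAR cultures and on a day change common to all media. The summed mesenchymal markers fell in this step from 16860 and 18900 CPM to at most 94.2 CPM. Their part in the changes below was not tested. From AICAR with or without LIF at d16 to d16+2-3p, Lef1, Tcf7, Tcf7l1, Cdx1 and Notum rose and Axin2, Tcf7l2 and Nkd1 fell. These 8 of 10 genes stood beside 65.8% of all genes called, with 32.2% higher and 33.6% lower, and their share is not far from that background. Axin2 fell by 1.44 (SE 0.285, adjusted p = 0.000248), from 118 and 111 CPM to 69.5 and 46.6 CPM at d16+2p and 47.4 and 29.3 CPM at d16+3p. The d16+3p library from AICAR+LIF was thus the lowest of the reverted ones and still above both primed libraries. The count was 3 when the AICAR d16 or the AICAR+LIF d16 library was left out. Lef1 (1.81, SE 0.733, adjusted p = 0.037) and Tcf7l2 (-1.63, SE 0.703, adjusted p = 0.0488) were near the threshold. With limma neither was called (1.54, adjusted p = 0.128, and -1.59, adjusted p = 0.147). The Lef1 call was also lost without either d16+2p library, AICAR d8 or either d16 culture (1.46 to 1.84), and the Tcf7l2 call without AICAR d16+2p, either d16+3p library or any 1 of the 4 AICAR and AICAR+LIF cultures (-2.15 to -1.44).

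From d16+2-3p to d16+10p, with 2iL on either side, Axin2, Sp5 and Tcf7 rose and 0 of the 10 fell. These calls stood beside 11.8% of all genes called, 6.11% of them higher and 5.70% lower as shares of all genes. Axin2 rose by 1.25 on the log2 scale (SE 0.233, 2.38-fold, adjusted p = 0.00209), from 29.3 to 69.5 CPM up to 83.8 to 161 CPM with no overlap. Sp5 rose most, as given above, and Notum (0.61, 95% interval -0.16 to 1.37) and Nkd1 (0.79, -0.04 to 1.61) were not called. The summed level of 4 markers of primed cells, among them Fgf5, also differed in this step, from 431 to 596 CPM at d16+2-3p to 52.3 to 227 CPM at d16+10p, while that of 4 naive markers overlapped (1307 to 1702 and 1222 to 1921 CPM). Their part in these rises was not tested.

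The wider pathway was read from 90 other genes in lists by role, of which 87 were tested. From primed to d16+10p, 12 of the 87 were higher and 29 lower, beside 18.3% and 21.7% of all genes, with a median log2 fold change of -0.56 against -0.01. Of 19 Wnt ligands 6 were lower and 0 higher, and of 15 receptors and co-receptors 8 were lower and 1 higher. Among receptors, Fzd2 fell by 2.76 (SE 0.434, adjusted p = 6.41e-05), from 32.5 and 47.5 CPM. Fzd8 fell by 3.30, but only 0.52 with no call without primed 129/MSM, where it was at 104 CPM against 8.12 CPM in primed Oct4GIP. Wls, which carries Wnt ligands to the cell surface, fell by 2.50 (SE 0.476, adjusted p = 0.000402), and by 1.41 with no call without primed 129/MSM. All 5 genes listed as repressed by Tcf7l1 rose (Esrrb, Klf2, Nanog, Tfcp2l1 and Nr0b1). Esrrb, an orphan nuclear receptor, rose from 1.48 and 0.951 CPM to between 576 and 890 CPM, by 9.12 on the log2 scale (SE 0.394, adjusted p = 8.32e-11). Tfcp2l1 rose by 6.49 (SE 0.320), and Nr0b1 from 0 and 0.634 CPM to between 65.5 and 126 CPM. These 5 are also general genes of the naive state.

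In whole cultures 2iL left 85 of the 87 genes without a call against Basal medium, and 2 were called, beside 0.315% of all genes. Those called were Wnt1, which fell (adjusted p = 0.0278), and Rspo2, an R-spondin that strengthens Wnt signals, which fell by 3.71 (SE 0.616, adjusted p = 0.0179). Of the 19 ligands 1 was called lower, 0 higher and 18 not called, with a median log2 fold change of 0.45. Wnt4, not called, was at 130 and 107 CPM in 2iL d8 and d16 against 19.6 and 23.3 CPM in Basal. In this comparison Wnt1 lies under the level set for naming genes and was named after its values were seen. Wnt1 was at 29.0 and 9.08 CPM in Basal d8 and d16, against 0.832 and 0.402 CPM in 2iL. These are 2 counts and 1 count in 2iL, and the ratio of summed counts, Basal to 2iL, was 25.9 (95% exact interval 8.68 to 127.0, counting error only). Rspo2 was at 18.2 and 53.7 CPM in Basal, 2.50 and 2.41 CPM in 2iL, and 29.7 to 153 CPM in the AICAR cultures. The Wnt1 call was lost when any 1 of the 4 libraries was left out (-5.02 to -4.31), and the Rspo2 call without Basal d16 (-3.52) or 2iL d16 (-2.87). Wnt1 was at 0 counts in all naive, primed and reverted libraries. Of the 5 genes repressed by Tcf7l1, 0 were called in 2iL against Basal, and Esrrb was at 1.25 and 0.402 CPM in 2iL against 3.27 and 3.03 CPM in Basal.

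**Figure D4:**
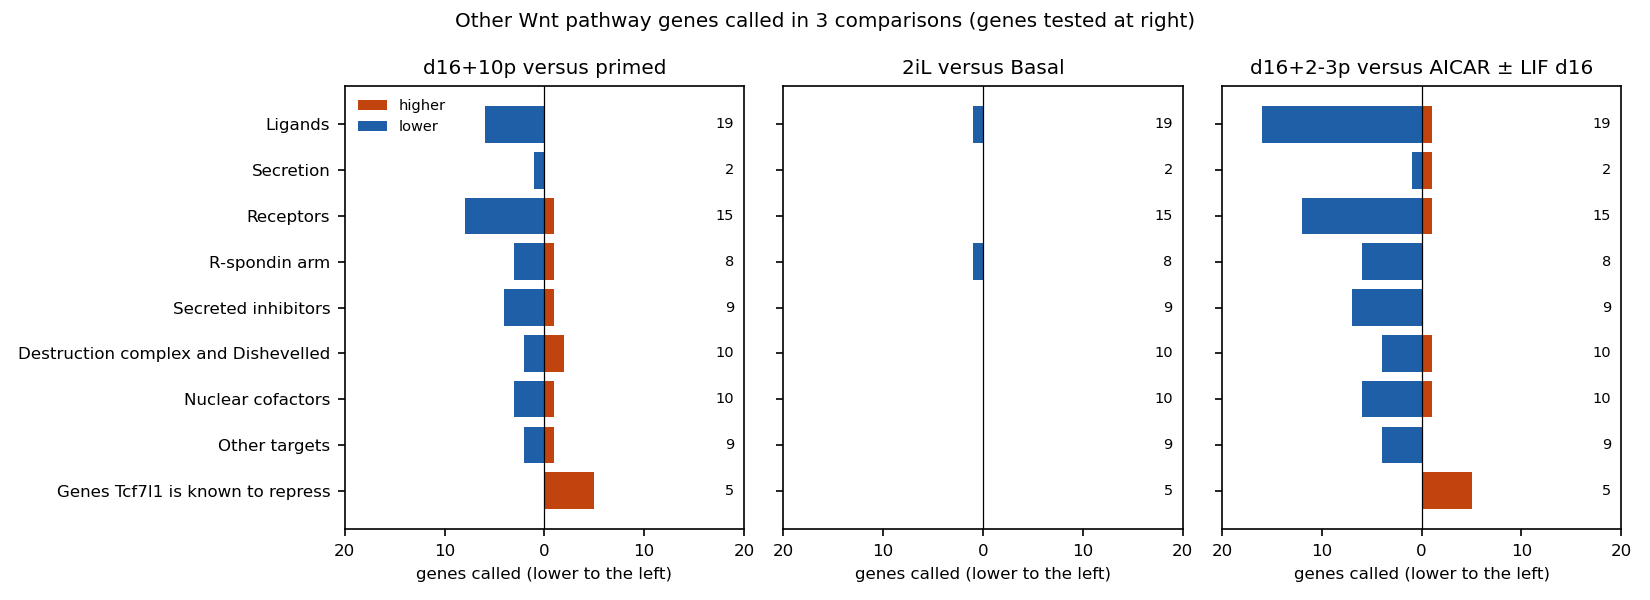
Number of genes called higher (right) and lower (left) in each list of Wnt pathway genes, in 3 comparisons, with the number tested at the right edge. Most ligands and receptors are lower at d16+2-3p than in the d16 cultures, while the 5 genes repressed by Tcf7l1 are higher there and against primed cells.

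From AICAR with or without LIF at d16 to d16+2-3p, 56 of the 87 wider genes fell and 10 rose, beside 33.6% of all genes lower and 32.2% higher. They included 16 of 19 ligands lower and 1 (Wnt8a) higher, 12 of 15 receptors lower, 6 of 8 genes of the R-spondin arm lower and 7 of 9 secreted inhibitors lower. Fzd3 fell by 4.82 (SE 0.245, adjusted p = 5.17e-11), Apcdd1, a membrane inhibitor, by 4.57 (SE 0.368, adjusted p = 8.59e-09) and Wls by 4.32 (SE 0.526, adjusted p = 1.25e-06). Among the genes repressed by Tcf7l1, Esrrb rose by 8.92 and Tfcp2l1 by 7.48, and Nr0b1 went from 0 counts in both cultures to between 63.0 and 137 CPM. The mesenchymal markers fell in the same step, and their part was not tested. In AICAR with or without LIF against Basal, 10 rose and 8 fell, beside 4.42% of all genes higher and 6.98% lower. Among them were Rspo3 (2.31, SE 0.355, adjusted p = 0.000837) and Wnt7b (-2.41, SE 0.396, adjusted p = 0.00127). Calls that were lost when any of several single libraries was left out were those of Wnt9a (2.14, or 1.54 to 2.77 in the lost cases), Apc2 of the destruction complex (-1.80, or -2.49 to -1.10) and the cofactor Pygo1 (-1.50, or -1.67 to -1.24). Nanog was higher by 3.08 in AICAR with or without LIF (SE 0.645, adjusted p = 0.00614). The Nanog call was lost without Basal d8 (2.26) and without the AICAR d8 and AICAR+LIF d8 libraries (1.89). It was also lost with limma (3.02), with thinned counts (2.64) and in a fit of the 8 whole cultures alone (3.18).

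From d16+2-3p to d16+10p, 8 rose and 3 fell, beside 6.11% and 5.70% of all genes, among them the co-receptor Lrp5 (1.88, SE 0.268, adjusted p = 0.000327), which was at 20.6 to 33.2 CPM at d16+2-3p and 45.1 to 136 CPM at d16+10p, and Myc (-1.88, SE 0.362, adjusted p = 0.00265). Dkk3, a secreted protein of the Dickkopf family, rose by 2.64 (SE 0.546, adjusted p = 0.00412), from 2.12 to 2.97 CPM up to 6.87 to 32.0 CPM. Sfrp1, which binds Wnt ligands, rose by 2.11, and the corepressor Tle4 fell by 0.55, and both calls were lost when any of several libraries was left out (1.80 to 2.37 and -0.58 to -0.50). Between d8 and d16, 21 rose and 12 fell, beside 15.8% and 12.8% of all genes, among them the ligand Wnt11 (3.39, SE 0.726, adjusted p = 0.00207) and receptor Fzd9 (2.42, SE 0.404, adjusted p = 0.000296) as higher, and Wnt7b (-3.26, SE 0.369, adjusted p = 8.19e-06) and the secreted inhibitor Frzb (-2.83, SE 0.647, adjusted p = 0.00618) as lower. The calls of the receptor Lgr6 (2.77) and of Wnt1 (-1.55) were lost when any of 4 single libraries was left out, with values of 1.76 to 2.33 and -1.49 to -1.45. In the difference between the reversion and the 2iL effect, Esrrb (10.98), Tfcp2l1 (7.96) and Klf2 (5.07) were the most positive of the wider genes named by the rule, and Fzd2 (-3.81), Fzd8 (-3.62) and Lgr4 (-1.64) the most negative. Klf2 lost its call without Basal d16 (5.27), Lgr4 without Basal d16 (-1.11) or 2iL d16 (-1.61), and Fzd8 without either of these or without primed 129/MSM, where it was -0.90.

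Likeness of pattern was described by Pearson's r of log2 CPM over the 22 libraries, among 11058 genes with a mean log2 CPM of at least 3. The 5 genes most like Axin2 were Cdo1 (r = 0.886), Cpt1a (0.883), Ksr1 (0.875), Smarcd3 (0.869) and Mras (0.864). For Tcf7l1 they were Ctnna1 (0.897), Sfmbt2 (0.896), Ints6 (0.889), Pou2f1 (0.887) and Gm10130 (0.887). The 22 libraries fall into a few states, so that genes low in the same state correlate.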

How the data were processed

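Bulk RNA-seq counts of 22 libraries were used. The authors' stranded libraries of mRNA were sequenced as single reads and mapped with Bowtie2 2.2.5 (version from the submitters' processing notes) to Ensembl GRCm38 cDNA and ncRNA sequences with a MAPQ filter. They deposited whole-number read counts per gene, without normalization, and reads of near-identical genes may be missing or sit on the wrong copy. Deposited counts per transcript and of detected genes were not used here.

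Libraries were grouped by the labels into 8 groups. All 22 entered 1 quasi-likelihood fit in edgeR 4.0.16 under R 4.3.3 (TMM factors, filterByExpr, Benjamini-Hochberg adjustment, threshold 0.05), with 1 further term for d16 against d8, leaving 13 residual degrees of freedom. The 7 comparisons are contrasts of that fit, and the fit was tested on simulated data. Alternatives used DESeq2 1.42.0, limma 3.58.1, other size factors, other filters (none, or 10 counts in every library), counts thinned to the smallest total, other sets of libraries or groups, and libraries left out 1 at a time. The members and gene lists were chosen with earlier results of these data known. All 10 members are named. From the other lists, up to 3 genes per direction and comparison are named, by largest fitted change with an adjusted p under 0.05 and a mean log2 CPM of at least 3, with levels of others where a result turns on them. Positions and lengths are from GENCODE M21 and promoter windows from RefSeq, both on GRCm38. No window was used for Notum or Cdx1. None was available for Notum. Member windows on chromosome 18, which holds Cdx1, were left out, while the background of all windows kept that chromosome. Other steps used Python 3.11.15 with pandas 2.3.3 and matplotlib 3.10.9.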

Additional observations from a re-analysis of the deposited data

Results flagged for a closer look

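Among 20 groups of values tested (10 genes at d16+2-3p and at d16+10p), 2 held a library far from the others by Dixon's criterion, which chance passes in about 1 of 20 groups. Tcf7 was at 68.7 CPM in AICAR+LIF d16+3p, above the other 3 libraries at d16+2-3p. Ctnnb1 was at 783 CPM in AICAR d16+3p, below the other 3.

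The change from primed to d16+10p differed from that from Basal to 2iL, by the test of the difference itself, for Axin2 (3.89 on the log2 scale), Sp5 (5.50) and Notum (3.91), for all of which the first change was the more positive. The pairs differ in cell state as well as in medium, and these cannot be told apart here. The Notum call was lost in 10 of 21 alternatives, and the Axin2 and Sp5 calls in none.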

How the results depend on the processing

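The number of the 10 genes called moved by over 1.5 times in these cases. With 10 counts required in every library, only 5 of them were tested (Axin2, Lef1, Tcf7, Tcf7l1 and Ctnnb1) and 1 was called from primed to d16+10p, 4 from AICAR with or without LIF at d16 to d16+2-3p, 0 for AICAR against Basal and 1 for the reversion minus the 2iL effect. DESeq2 called 5 for the last. For AICAR against Basal the count was 0 without AICAR d8 and AICAR+LIF d8 and with thinned counts. For d16 against d8 it was 1 without the 129/MSM libraries and 1 without AICAR d8 and AICAR+LIF d8. With 1 library left out at a time it was 5 to 7 (primed to d16+10p), 0 to 0 (2iL), 0 to 1 (AICAR), 3 to 7 (d16 culture to d16+2-3p), 2 to 4 (d16+2-3p to d16+10p), 0 to 0 (day) and 2 to 3 (reversion minus 2iL). The number of the 10 with no overlap between sets of libraries did not move with CPM on total counts or without AICAR d8 and AICAR+LIF d8. Over all genes these 2 settings moved it from 32 to 14 and 38 higher and from 13 to 24 and 27 lower (inhibitor), and from 286 to 182 and 490 higher (2iL cultures), where the second also moved it from 359 to 740 lower.

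From primed to d16+10p, Tcf7 turned sign without normalization factors (-0.05), with 10 counts in every library (-0.04), without the 129/MSM libraries (-0.46) and with thinned counts (-0.29), and Ctnnb1 with limma (0.04) and without 129/MSM (0.50). With 1 library left out, Tcf7 ran from -0.40 to 0.66, Ctnnb1 from -0.40 to 0.50 and Tcf7l2 from -3.62 to 0.40. For 2iL against Basal, Ctnnb1 was -0.0037 without normalization factors, -0.03 with thinned counts and -0.05 against the mean of the media without inhibitor, and Nkd1 was 0.40 against that mean. Leaving out 1 library gave Tcf7 -0.90 to 0.04, Tcf7l1 -0.82 to 0.45, Tcf7l2 -0.66 to 1.13, Sp5 -2.30 to 0.40, Notum -4.52 to 2.25 and Ctnnb1 -0.32 to 0.49. Of these results only Tcf7l2 from primed to d16+10p was called, and the cause of the changes was not tested. Over all genes, calls ran from 1 (without Basal d16) to 212 (limma) around 59 for 2iL, from 415 to 3418 around 2137 for AICAR, from 3152 to 7671 around 7480 for primed to d16+10p, from 5255 to 12896 around 12329 for d16 culture to d16+2-3p, from 859 to 2627 around 2213 for d16+2-3p to d16+10p, from 2960 to 6472 around 5350 for day and from 1313 to 3872 around 3056 for the difference of effects. Without normalization factors the share of calls that were higher moved from 38.8% to 51.0% for AICAR and from 55.3% to 44.4% for day.

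With 2 libraries on a side and 3 counts worth up to 5.95 CPM at d8, changes in Sp5, Notum and Cdx1 between whole cultures were not detectable at this depth unless large.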
